A study of Saccharomyces cerevisiae with 14 samples.

Results

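Of the 16000 cofilin variants in a yeast growth screen, 2400 (15.0%) carry an aromatic residue, Phe, Tyr or Trp, at position 5 of the N-terminal tail, where human cofilin-1 has Val. They were chosen by their sequence alone, as all variants whose residues at positions 2 to 5 end in F, Y or W. Each of the 3 residues occurs in 800 variants, so that every combination of 20 residues at position 2, Ser or Thr at position 3 and 20 residues at position 4 is present once with Phe5, once with Tyr5 and once with Trp5. A variant is written by its residues at positions 2 to 5, so ASGV is the human sequence and ASGF is the human tail with Phe in place of Val5.

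Cofilin binds actin filaments and severs them, and its short, disordered N-terminal tail takes part in actin binding. LIM kinases such as LIMK1 phosphorylate cofilin on Ser3, which inactivates it. Phe, Tyr and Trp all have a ring in the side chain: Phe is a plain hydrocarbon ring, Tyr is Phe with a hydroxyl group, and Trp has the largest side chain, a double ring with a nitrogen.

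The screens used TeTO7-COF1, a Saccharomyces cerevisiae strain whose own cofilin gene, COF1 (YLL050C, chromosome XII, 39804 to 40414 in the R64 assembly), is switched off by doxycycline (DOX). All cultures carried the library of His6-tagged human cofilin-1 variants on a plasmid with the constitutive GPD promoter and full-length FLAG-tagged LIMK1 under the galactose-inducible GAL1 promoter. In each of 3 screens, a library was taken from glucose culture without DOX (T-1) and after growth in raffinose with DOX (T0), when the culture was split and carried through 3 growth and dilution cycles (T1 to T3) with DOX in glucose, where LIMK1 was not induced, or in raffinose with galactose, where it was. The screens started from frozen aliquots of 1 transformed strain, and the sugar changes together with LIMK1, so that effects of the sugar and of the kinase cannot be told apart. Enrichment measures growth with each variant as the only cofilin once Cof1 is gone, not actin binding or phosphorylation itself.

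The 24 libraries held 7185497 to 61265998 reads (median 23863730). A variant's level is given in RPM, reads per 1000000 reads of its library, and a change as the log2 of the ratio of 2 such levels, so that 0 stands for a variant that kept its share. Over all 2400 aromatic variants and 24 libraries, 196 values were 0 reads. Spreads given with ± are SDs over the 3 screens unless marked SE. SEs, and the p values of edgeR and limma, use variances drawn towards those of all features in the test. They rest on these 3 screens alone.

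Every variant was encoded by 1 sequence of 12 bases, in which Phe5 was always TTC, Tyr5 always TAC and Trp5 always TGG. The sequences below are those of the human tail and of the aromatic variants on which the results turn, with the codon of position 5 in capitals.
ASGV: gctagcggtGTT
ASGF: gctagcggtTTC
ASGY: gctagcggtTAC
ASGW: gctagcggtTGG
MSLF: atgagcctgTTC
FSAF: ttcagcgctTTC
SSGY: tctagcggtTAC
SSMW: tctagcatgTGG
TSGF: actagcggtTTC
FTLY: ttcaccctgTAC
The first 4 differ only at position 5. MSLF had the highest change of all Phe5 variants in glucose, SSGY that of Tyr5 and SSMW that of Trp5. FSAF had the largest differences between Phe and its aromatic relatives. From T1 to T3, TSGF fell in every screen with LIMK1 induced but not in every screen without. FTLY fell in both media, and less with LIMK1 induced.

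Aromatic variants together held 18.1% ± 0.7 (SD, n = 3) of all reads at T0, and the 3 residues separated within the first growth cycle in glucose. At T0, Phe5 variants made up 6.506%, 5.997% and 5.880% of all reads in screens 1, 2 and 3, Tyr5 variants 7.86%, 7.35% and 8.09%, and Trp5 variants 4.28%, 3.96% and 4.29%. By T1 in glucose, Phe5 was still at 6.54% ± 0.32, while Tyr5 had dropped to 1.65% ± 0.22 and Trp5 to 0.658% ± 0.128. In all 3 screens the Tyr5 and Trp5 shares at T1 lay below every value of T0, and those of Phe5 overlapped with T0.

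Phe5 lost reads later and less than its relatives. At T2 in glucose the shares were 4.15% ± 0.28 for Phe5, 0.670% ± 0.095 for Tyr5 and 0.172% ± 0.069 for Trp5, and at T3 they were 3.42% ± 0.56, 0.543% ± 0.101 and 0.142% ± 0.050. In galactose, Phe5 stood at 5.84% ± 0.14 at T1, 5.22% ± 0.25 at T2 and 4.63% ± 0.22 at T3. At T3 in galactose, Tyr5 was down to 0.308% ± 0.026 and Trp5 to 0.0950% ± 0.0152. The share of Phe5 at T3 was above its glucose value in every screen (4.45%, 4.56% and 4.88% in galactose against 4.06%, 3.03% and 3.16% in glucose), whereas the share of Tyr5 was below its glucose value in every screen and that of Trp5 in 2 of 3.

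The median change per interval gives the same order. From T0 to T1 in glucose, the median variant changed by -0.77 ± 0.18 with Phe5, -3.01 ± 0.36 with Tyr5 and -3.08 ± 0.38 with Trp5, against -2.17 ± 0.18 over all 16000 variants. From T1 to T2 the medians were -1.77 ± 0.33, -2.09 ± 0.65 and -2.17 ± 0.67. Trp5 was below Phe5 in each screen over this interval (-1.94, -1.65 and -2.93 against -1.58, -1.58 and -2.15), and Tyr5 was below it in 2 of 3 (-1.93, -1.54 and -2.81). From T2 to T3 they were -0.33 ± 0.07, -0.04 ± 0.26 and 0.04 ± 0.28. Most of the gap between Phe and the other two opened in the first cycle. In the last one, the median of Phe5 was below those of Tyr5 and Trp5 in each screen. By then most Tyr5 and Trp5 variants were low: the median Trp5 variant had 40, 90 and 14 reads at T2 and 35.5, 73 and 12 at T3. Other residues whose variants nearly all fell changed as little from T2 to T3, with medians of 0.007 ± 0.26 for Asp5 and 0.06 ± 0.21 for Arg5.

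In glucose from T0 to T2, the interval in which growth without LIMK1 was compared, 128 of the 800 Phe5 variants rose and 552 fell, in the edgeR quasi-likelihood test adjusted over all 16000 variants. Of all variants, 20.9% rose and 70% fell. Tyr5 had 16 variants that rose and 771 that fell, and Trp5 had none that rose and 796 that fell. For Trp5, 1 variant was higher at an unadjusted p under 0.05 in edgeR, and DESeq2, with its own size factors, called 34; without screen 3, edgeR called 1. The T0 to T2 medians were -2.91 ± 0.39 for Phe5, -5.10 ± 0.87 for Tyr5 and -5.29 ± 0.96 for Trp5, with -4.06 ± 0.60 over all variants. Other scalings move all these values together, by 2.88 (TMM) to 4.45 (charged residues at position 5 as the reference), and place the Phe5 median at 1.06 with DESeq2 size factors and 1.52 with the charged reference. Under TMM, DESeq2 size factors and the charged reference, Phe5 had 315, 398 and 430 variants that rose and 295, 145 and 52 that fell, so that "rose" and "fell" here refer to the share of all reads. In the same order, Tyr5 had 35, 49 and 66 that rose and 677, 455 and 202 that fell, and Trp5 had 7, 23 and 46 that rose and 674, 518 and 302 that fell. Counts under these scalings, here and below, stand without a share over all variants under the same scaling. They cannot be set against the shares of all variants given above. Differences between variants do not depend on the scaling.

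Most of the Phe5 variants that rose shared 1 of 3 residues at position 4. Among the 120 Phe5 variants with Gly4, Leu4 or Met4, 87 rose and 10 fell. Of the 160 with Asp4, Glu4, Lys4 or Arg4, 0 rose and 157 fell. The remaining 13 residues at position 4 gave 41 of 520 that rose, 12 of them with Cys4, 9 with Ile4 and 5 with Phe4. By position 4, the median change of the 40 Phe5 variants ran from 1.97 with Leu4, 1.80 with Met4 and 1.14 with Gly4, through -0.56 with Phe4 and -0.80 with Cys4, to -5.25 with Arg4. Leu4 and Met4 are bulky and hydrophobic, and Gly4, the human residue, has no side chain.

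Shares of reads show how these 3 groups diverged with time. The 40 Leu4-Phe5 variants went from 0.168%, 0.234% and 0.201% at T0 to 0.838%, 0.779% and 0.767% at T2 in glucose, and reached 1.25%, 1.52% and 1.37% at T3 in galactose. Met4-Phe5 went from 0.252%, 0.371% and 0.296% to 1.07%, 0.956% and 1.01% over the same glucose interval. Gly4-Phe5 reached its highest share at T1 in glucose (0.502%, 0.494% and 0.512%, from 0.170%, 0.198% and 0.163% at T0) and stood at 0.379%, 0.256% and 0.327% at T3. The Leu4 group was still above its T1 share at T3 in all 3 screens, and the Gly4 group was below its own in all 3.

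MSLF and FSAF rose the most of all Phe5 variants in glucose. MSLF, with Met2 and Leu4, was at 26.1, 72.2 and 37.9 RPM at T0 and at 318, 401 and 391 at T2 (log2 change 3.15, SE 0.25, edgeR adjusted p = 1.19e-34). FSAF, with Phe2 and Ala4, went from 25.9, 58.6 and 43.9 to 254, 434 and 383 (3.10, SE 0.25, adjusted p = 1.66e-33). In both, each screen's T2 level was above all 3 levels of T0. The next, PSLF (3.01), ISLF (2.97) and FSLF (2.93), are Leu4 variants like MSLF. For comparison, ASGV, the human tail, changed by 3.18 (SE 0.24).

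FSAF is unlike the other Phe5 variants with Ala4, of which 4 of 40 rose, 28 fell and the median was -2.67. Its Thr3 counterpart FTAF, named here after its values were seen, was at 73.5, 97.2 and 97.8 RPM at T0 and at 183, 283 and 313 at T2, a change of 1.51 (SE 0.25, adjusted p = 1.40e-09). Both have Phe at position 2 as well as at position 5.

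The lowest Phe5 variants carried a charged residue at position 2 or 4, or both. YSEF (-6.42), RSAF (-6.42), TSDF (-6.31), WSRF (-6.14) and RTRF (-5.96) fell in all 3 screens. YSEF went from 136, 118 and 167 RPM at T0 to 2.22, 2.84 and 0.520 at T2. In each screen its T2 level was below all 3 levels of T0.

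Position 2 also shifted Phe5 variants, over a narrower range than position 4. The highest medians were those of Leu2 (-0.29), Met2 (-0.68), Ile2 (-0.68), Phe2 (-1.69) and Ser2 (-1.78), and Leu2 and Phe2 each had 12 of 40 variants that rose. The lowest were those of Asp2 (-4.58) and Glu2 (-4.35), which are acidic, with 1 and 4 that rose. The range of the medians was 4.29 over position 2 and 7.22 over position 4.

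Tyr5 variants rose in a narrower set of contexts. All 16 Tyr5 variants that rose had Ser3, 13 of them with Gly4 and 3 with Leu4 (FSLY, LSLY and MSLY, named after their values were seen). Only 15 of the 16 moved the same way in every screen, and the exception, GSGY, changed by 1.53, -0.04 and 1.504 in the 3 screens. SSGY, with Ser2, was at 32.8, 47.8 and 29.0 RPM at T0 and at 304, 206 and 241 at T2 in glucose (2.79, SE 0.28, adjusted p = 6.56e-23). CSGY (2.08), RSGY (1.98), QSGY (1.95) and TSGY (1.89) followed, all of the form Ser3-Gly4-Tyr5 and differing only at position 2.

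Outside Gly4, Leu4 and Met4, each Tyr5 variant fell in glucose. Of the 680 that had neither Gly4, Leu4 nor Met4 at position 4, 0 rose and 680 fell, and of the 120 that had 1 of the 3, 16 rose and 91 fell. The median by position 4 was -2.24 with Gly4, -3.63 with Leu4 and -4.03 with Met4, and -4.97 or lower with each other residue. Position 2 moved the Tyr5 medians by no more than 1.08, from -5.47 with Cys2 to -4.40 with Trp2. The lowest, QTRY (-6.52), CTYY (-6.45), HTPY (-6.45), CTAY (-6.43) and NSHY (-6.28), hold no common residue at position 2 or 4. QTRY dropped from 293, 287 and 268 RPM to 4.48, 4.39 and 1.32.

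With Trp5, no variant passed the test upwards in glucose, and 4 did not pass it downwards. All 4 had Met4: SSMW, ASMW, STMW and ATMW, which were singled out after their values were seen. SSMW was at 28.8, 29.5 and 24.2 RPM at T0, 76.6, 128 and 114 at T1 and 66.8, 44.0 and 69.5 at T2 in glucose (1.11, SE 0.56, adjusted p = 0.0513). By T3 it was at 23.7, 31.3 and 38.3, which overlaps with its T0 levels. ASMW had a change of 0.75 (adjusted p = 0.150), STMW of -0.13 (adjusted p = 0.807) and ATMW of -1.01 (adjusted p = 0.134).

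The Trp5 medians differed less between residues at position 4 than those of Phe5 or Tyr5. Over all Trp5 variants the median by position 4 was -4.04 with Met4 and -4.70 with Gly4, and between -5.58 and -5.04 with every other residue. NSPW (-7.01), CSPW (-6.96), RSRW (-6.96), KSSW (-6.82) and FSTW (-6.73) were lowest. NSPW dropped from 124, 108 and 111 RPM to 0.781, 1.22 and 0.694. The changes of single variants correlated between screens with r of 0.928 to 0.946 for Phe5, 0.775 to 0.823 for Tyr5 and 0.551 to 0.614 for Trp5, a description over 800 variants that share libraries.

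Exchanging 1 aromatic residue for another in the same context removes the scaling and the other positions from the comparison. Phe5 was higher than Tyr5 in 454 of 800 contexts and lower in 9, and higher than Trp5 in 484 and lower in 22, in limma tests adjusted over all 152000 exchanges at position 5, of which 58.5% were called in either direction. The median difference was 1.67, 1.86 and 2.69 in screens 1, 2 and 3 for Phe minus Tyr (2.07 ± 0.54) and 1.97, 2.23 and 3.03 for Phe minus Trp (2.41 ± 0.55). Tyr and Trp were much closer: Tyr5 was higher in 105 contexts and Trp5 in 54, and 641 were not called, with a median difference of 0.12, 0.22 and 0.31 (0.22 ± 0.09), which is 0.0905 with 5 reads added to each count. Each of these medians had 1 sign in 3 of 3 screens, for which the exact two-sided sign permutation test gives p = 0.25, the smallest that 3 screens allow. Both Tyr5 and Trp5 were low by T2 in glucose, where the median variant had 88, 214 and 37 reads with Tyr5 and 40, 90 and 14 with Trp5. Other residues whose variants nearly all fell had T0 to T2 medians alike, such as -5.40 with Asp5, -5.27 with Glu5 and -5.05 with His5. Whether the closeness of Tyr5 and Trp5 reflects that low level was not tested.

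The contexts in which the exchange was called were unevenly spread over position 4. With Met4, Phe5 was higher than Tyr5 in all 40 contexts, and with Leu4 and Phe4 in 37 each, with Arg4 in 4 and with Lys4 in 6. With Gly4 it was higher than Trp5 in 40 of 40 and higher than Tyr5 in 21 of 40. Of the 105 contexts in which Tyr5 exceeded Trp5, 26 had Gly4 and 22 had Leu4. Where Trp5 exceeded Tyr5, Met4 was the most frequent residue, with 9 of 54.

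The largest differences came from contexts in which 1 aromatic variant rose and the other fell. FSAF exceeded FSAY by 7.99 (7.77, 6.96 and 9.24 in the 3 screens, SE 0.60, limma adjusted p = 3.64e-06), RTMF exceeded RTMY by 7.25 and NSLF exceeded NSLY by 7.04. Against Trp, FSAF exceeded FSAW by 8.87, MTLF exceeded MTLW by 8.48 and QSLF exceeded QSLW by 8.36. NSGY exceeded NSGW by 7.36, SSGY exceeded SSGW by 7.16 and QSGY exceeded QSGW by 6.64. In all 9 of these exchanges the higher variant rose in glucose and the lower one fell.

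Exchanges in the opposite direction were smaller. YSGF was below YSGY, with a difference of -2.76 (-2.69, -1.84 and -3.75 in the screens, limma adjusted p = 0.00178), and here YSGY rose (1.38) while YSGF fell (-1.39). WSKF was below WSKY (-2.46) and SSPF below SSPY (-2.07), although all 4 of these fell. Trp5 was above Phe5 in DSHW (-3.09 for Phe minus Trp), GSHW (-2.95) and GTEW (-2.49), and above Tyr5 in GSHW (-4.01 for Tyr minus Trp), FTDW (-3.25) and STQW (-3.07). All of the Trp5 variants named here fell, so that these differences are between 2 variants that both lost share. Their size varied between screens, with -1.17, -1.43 and -4.79 for WSKF minus WSKY and -4.71, -1.41 and -3.16 for DSHF minus DSHW. Whether they reflect low read counts at T2 was not tested.

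In the human tail, the variants with Phe5 and Tyr5 rose in glucose and that with Trp5 fell relative to all reads. ASGF was at 15.3, 30.0 and 11.4 RPM at T0 and at 57.5, 58.2 and 39.2 at T2 (1.55, SE 0.61, adjusted p = 0.0129), and did not pass without screen 1 (1.36) or screen 2 (1.84). ASGY went from 41.7, 110 and 63.1 to 182, 262 and 266 (1.82, SE 0.26, adjusted p = 7.20e-12). ASGW went from 22.3, 21.2 and 26.1 to 0.987, 1.57 and 2.36 (-3.89, SE 0.77, adjusted p = 6.21e-07), a change that is 0.12 with DESeq2 size factors and 0.58 with the charged reference. The difference between ASGF and ASGY was -0.27 ± 0.52 (SE) with an adjusted p of 0.682 in limma, which is within the spread, and that between ASGF and ASGW was 5.44 (SE 0.56, adjusted p = 1.25e-05).

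In the yeast tail, Arg-Ser-Gly, the order was alike. RSGF changed by 1.34 (SE 0.26), RSGY by 1.98 (SE 0.54) and RSGW by -3.79 (SE 0.60), all past the threshold, although RSGW is at 0.0507 with DESeq2 size factors and 0.53 with the charged reference. RSGF and RSGY differed by -0.64 (SE 0.54, limma adjusted p = 0.335). With Thr3 in place of Ser3, none of the 6 variants rose. ATGF changed by -1.63 (adjusted p = 0.0311) and RTGF by -1.25 (adjusted p = 0.0290), both of which turn positive under TMM, DESeq2 and charged-residue scaling and do not pass without screen 1 (-1.23 and -1.15) or screen 2 (-1.05 and -1.46), while ATGY (-4.69), RTGY (-5.58), ATGW (-3.40) and RTGW (-4.63) fell by more. Of these 4, ATGW turns positive as well, with 0.51 under DESeq2 size factors and 0.98 with the charged reference.

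Ser3 and Thr3 compared differently with each aromatic residue. Over all 8000 pairs that differ only by Ser3 or Thr3, 18.4% were higher with Thr3 and 7.34% were higher with Ser3 in glucose, and the mean of Thr3 minus Ser3 was 0.45 ± 0.06. Among the 400 Phe5 pairs, 39 were higher with Thr3 and 68 with Ser3 (mean -0.23 ± 0.05). Tyr5 had 10 and 48 (-0.37 ± 0.03), and Trp5 had 28 and 24 (0.07 ± 0.02). The 3 screens gave a negative mean for Phe5 and Tyr5 each time, and a positive one for Trp5. Nearly all Tyr5 variants (374 with Ser3 and 397 with Thr3) and Trp5 variants (398 and 398) fell. Most of their pairs thus compare 2 variants that both fell. With His5, whose variants nearly all fell as well, 23 pairs were higher with Thr3 and 35 with Ser3 (-0.11 ± 0.17). Leu5 had 70 and 44 (0.21 ± 0.06), and Met5 had 99 and 14 (0.65 ± 0.12). Over all 1200 aromatic pairs, 77 were higher with Thr3 and 140 with Ser3, and these counts were 50 and 104 without screen 1, 26 and 59 without screen 2 and 48 and 99 without screen 3.

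Pairs higher with Ser3 were concentrated at few residues at position 4, which differed between Phe5 and Tyr5. In Gly4-Tyr5 variants, 18 of 20 pairs were higher with Ser3, and the mean of Thr3 minus Ser3 was -5.11, -3.93 and -5.67 in the screens (-4.90 ± 0.89). In Gly4-Phe5 variants, 7 of 20 were higher with Ser3 and 1 with Thr3, with a mean of -0.93 ± 0.07. Phe5 pairs were most often higher with Ser3 at Ile4 (18 of 20 pairs, -2.74 ± 0.44) and Val4 (10 of 20, -1.71 ± 0.37), while with Thr4 none was and 4 were higher with Thr3 (0.61 ± 0.07). SSGY and its partner STGY illustrate the Gly4-Tyr5 case: STGY was at 67.9, 34.3 and 43.4 RPM at T0 and at 5.26, 3.84 and 8.57 at T2 (-3.06, adjusted p = 1.36e-05), whereas SSGY rose. Pro4-Phe5 (7 pairs higher with Thr3, 3 with Ser3) and His4-Phe5 (6 and 0) had more pairs higher with Thr3.

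Residue pair terms measure how far 2 residues together depart from the sum of their own means. Of 126 terms with an aromatic residue at position 5, 49 were above that sum and 49 below it, against 36.1% above and 35.4% below among all 1320 terms. The highest were Met4-Phe5 (2.64, SE 0.14), Leu4-Phe5 (2.05, SE 0.09), Gly4-Tyr5 (1.93, SE 0.18), Gly4-Phe5 (1.90, SE 0.14) and Glu4-Trp5 (1.39, SE 0.12). The lowest were Leu4-Trp5 (-1.97, SE 0.08), Arg4-Phe5 (-1.67, SE 0.11), Lys4-Phe5 (-1.32, SE 0.10), Trp4-Tyr5 (-1.21, SE 0.07) and Phe4-Tyr5 (-1.19, SE 0.07). Leu4 had the second highest term with Phe5 and the lowest with Trp5, and the 40 Leu4-Trp5 variants all fell. The high Glu4-Trp5 term goes with a group in which all 40 variants fell. The medians by position 4 spanned 1.54 with Trp5 and 7.22 with Phe5. Where changes vary so little, a term is low for a residue with a high mean of its own and high for one with a low mean. With Tyr5 the medians also lay close together outside Gly4, Leu4 and Met4, from -5.41 with Arg4 to -4.97 with Phe4. All 40 Trp4-Tyr5 and all 40 Phe4-Tyr5 variants fell. The Trp5 terms, and the Tyr5 terms with these other residues at position 4, are thus no measure of preference by themselves.

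Of the other residues compared here at position 5, Phe lay below Met, Leu, Ile and Val and above His. Phe5 was lower than Ile5 in 605 contexts and higher in 3, and lower than Val5 in 536 and higher in 6. Phe5 was lower than Met5 in 661 contexts and higher in 3, and lower than Leu5 in 499 and higher in 16, with median differences of -3.90 ± 0.40 and -2.22 ± 0.23. It was higher than His5, which has a smaller and polar ring, in 444 contexts and lower in 16 (2.01 ± 0.39). Tyr5 and His5 differed in few contexts: Tyr5 was higher in 62 and His5 in 85, and the median difference was 0.03, -0.09 and -0.12 in the screens. Trp5 was higher than His5 in 72 and lower in 137 (-0.24 ± 0.18). Of the 800 His5 variants, 784 fell in glucose, so Tyr5 and Trp5 were here set against variants that nearly all fell as well.

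In galactose, with LIMK1 induced, the order of the residues was the same. From T0 to T2, 145 Phe5 variants rose and 528 fell, against 19% and 71.6% of all variants. Tyr5 had 11 and 769, and Trp5 had 2 and 792. Over the 2400 aromatic variants, 158 rose and 2089 fell, against 389 and 1791 with TMM, 516 and 1190 with DESeq2 size factors and 532 and 1010 with the charged reference. The medians in galactose were -2.78 ± 0.52 for Phe5, -5.84 ± 0.24 for Tyr5 and -6.19 ± 0.22 for Trp5. Both Trp5 variants that rose had Met4: ASMW (1.34, adjusted p = 0.00235) and SSMW (1.40, adjusted p = 0.00501), named after their values were seen. The galactose and glucose comparisons share their T0 libraries. MSLF, at 497, 767 and 710 RPM at T3 in galactose, and FSLF, at 974, 1195 and 1298, were above all of their T0 levels.

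The LIMK1 effect of a variant is its T1 to T3 change in galactose less its change over the same cycles in glucose, so that a negative value marks a variant that gained less or lost more in galactose, where LIMK1 was induced. Among Phe5 variants, 109 (13.6%) were above 0 and 32 (4.0%) below, where 3.57% of all variants were above and 9.89% below. Tyr5 had 9 above and 24 below, and Trp5 had 4 and 23. The median effect was -0.67, -0.15 and 0.26 in the screens for Phe5 (-0.19 ± 0.46), against -0.999, -0.636 and -0.232 over all variants (-0.62 ± 0.38). Phe5 was thus above the library in each screen, while Tyr5 (-0.89 ± 0.40) and Trp5 (-0.92 ± 0.44) were below it in each. Other residues whose variants nearly all fell in glucose had medians alike: Asp5 -0.90, Glu5 -0.92, Arg5 -1.09, His5 -0.81 and Lys5 -0.80. The low values of Tyr5 and Trp5 are thus not particular to aromatic residues. For all aromatic variants the split was 122 above and 79 below, and it was 171 and 31 with DESeq2 size factors, 94 and 62 with TMM and 48 and 122 with the charged reference. Without screen 1 it was 126 and 34, without screen 2 52 and 63 and without screen 3 42 and 37.

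More Phe5 variants with Thr3 passed the test of the LIMK1 effect above 0 than below, and with Ser3 the counts were near each other. With Ser3, the residue the kinase phosphorylates in the human protein, 26 Phe5 variants were above 0 and 30 below, 16 of the latter with Gly4. With Thr3, 83 were above and 2 below, and the other variants of the 400 were not called. These counts stand without a share over all Ser3 or all Thr3 variants and without counts under other scalings. They do not show a split that is particular to Phe5. The median over the 400 was -0.38, 0.22 and 0.53 in the screens with Thr3 and -0.93, -0.43 and 0.02 with Ser3. The 20 Ser3-Gly4-Phe5 variants had a median change from T1 to T3 of -3.89, -3.23 and -3.68 in galactose against -0.38, -0.66 and -0.44 in glucose. Their 20 Thr3 counterparts had 0.15, -0.41 and -0.06 in galactose against -0.863, -1.496 and -1.330 in glucose. The ranges of the 2 media did not overlap in either set, and their order was opposite: 16 of the Ser3 set were below 0 and none above, and 12 of the Thr3 set were above 0 and none below. Ser3-Gly4-Tyr5 variants followed the Ser3 pattern, with -3.27, -2.48 and -2.20 in galactose against -0.54, -0.96 and -1.07 in glucose, 14 of 20 below 0.

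Leu4 and Met4 variants with Phe5 did not show the loss that Gly4 did. The 20 Ser3-Leu4-Phe5 variants gained 0.88, 0.76 and 1.05 in galactose and 0.75, 0.41 and 0.86 in glucose from T1 to T3, and 1 of them was above 0 and none below in the test of the effect. Of the 20 Ser3-Met4-Phe5 variants none was above and 1 below, and of 20 Thr3-Met4-Phe5 variants 15 were above. Ile4-Phe5 had the most variants above 0, with 20 of 40, 14 of them with Ser3.

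The lowest LIMK1 effects belonged, with 1 exception, to Ser3-Gly4-Phe5. TSGF dropped from 215, 139 and 158 RPM at T1 to 8.75, 14.1 and 7.76 at T3 in galactose, and went from 121, 88.3 and 120 to 153, 82.3 and 152 in glucose (effect -4.27, SE 0.35, edgeR adjusted p = 1.81e-31). HSGF (-4.26), SSGF (-3.92) and MSGF (-3.91) also dropped in galactose in every screen, and ASGV had -3.11 (SE 0.20). The exception, WSSW (-3.98, SE 1.21, adjusted p = 0.00999), had 33, 18 and 6 reads at T1 and 0, 1 and 0 at T3 in galactose, so its fitted value depends on the prior count and is no bound. It did not pass without screen 1 (-3.56) or screen 2 (-5.92).

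In the human and yeast tails with Ser3, the effect was negative with Phe5 and Tyr5. ASGF, at 93.0, 86.1 and 74.2 RPM at T1 and 4.25, 8.42 and 4.66 at T3 in galactose, had an effect of -3.26 (SE 0.56, adjusted p = 1.12e-07). ASGY went from 243, 333 and 334 to 29.4, 72.4 and 118 (-2.13, SE 0.25, adjusted p = 1.42e-16). RSGF had -3.09 (SE 0.28) and RSGY -1.81 (SE 0.43), and both passed, although RSGY no longer did without screen 1 (-0.86) or screen 2 (-2.11). ASGW and RSGW, already at 10.3 RPM or less at T1 in galactose, had -0.82 and 1.12 with adjusted p of 0.568 and 0.535. With Thr3 in the same tails, the effect was positive with Phe5. With a screen left out it was 1.47 to 2.01 for ATGF and 1.01 to 1.86 for RTGF. For ATGY it was -1.04 to -0.57 and for RTGY -0.97 to -0.70.

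The highest effects came from variants that lost ground in glucose and less so in galactose. KSIF went from 76.7, 113 and 140 RPM at T1 to 5.14, 16.0 and 10.3 at T3 in glucose, and from 52.8, 77.7 and 95.8 to 17.9, 35.4 and 48.4 in galactose (2.27, SE 0.49, adjusted p = 4.62e-05). FTLY went from 135, 173 and 140 to 28.8, 24.4 and 11.0 in glucose and from 96.0, 102 and 98.3 to 51.9, 46.8 and 79.3 in galactose (2.13, SE 0.40, adjusted p = 1.66e-06). MTWF (2.26), ATCF (2.14) and CSMW (1.99) had the same form. MTWF no longer passed without screen 3 (1.63), nor did CSMW without screen 1 (1.82) or screen 3 (1.31). None of the 5 rose from T0 to T2 in glucose.

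No single exchange between aromatic residues passed the test of the LIMK1 effect. Of all 152000 exchanges at position 5, 0 (0%) were called by limma, the only tool run on them. With 5 reads added, 72 aromatic exchanges were called, and 54 with a mean of at least 100 reads, here without a share over all exchanges under those settings. Of the 2400 exchanges between 2 aromatic residues, 568 had an unadjusted p under 0.05 in limma: 204 of Phe and Tyr, 250 of Phe and Trp and 114 of Tyr and Trp. Among 800 contexts each, exchanges with Leu, Met, Ile or Val had 195 (Phe and Met) to 289 (Trp and Met). Those with His had 81 (Tyr) to 209 (Phe), so the aromatic counts are not particular to these exchanges. The median difference was 0.60, 0.76 and 0.68 for Phe minus Tyr (0.68 ± 0.08), 0.65, 0.84 and 0.71 for Phe minus Trp (0.73 ± 0.10) and 0.13, 0.02 and 0.02 for Tyr minus Trp (0.05 ± 0.06), with the exact sign permutation test at p = 0.25 for each.

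Before the cultures were split, more Tyr5 and Trp5 variants rose than fell, and the shares of Phe5 variants were near those of all variants. From T-1 to T0, when DOX was added in raffinose, 163 Phe5 variants rose and 272 fell, while 284 Tyr5 variants rose and 151 fell and 278 Trp5 variants rose and 157 fell. Of all variants, 24.2% rose and 33.1% fell, against 20.4% and 34.0% with Phe5, 35.5% and 18.9% with Tyr5 and 34.8% and 19.6% with Trp5. Other residues whose variants nearly all fell in glucose also had more that rose here. They were Asp5 (359 rose and 114 fell), Glu5 (304 and 123), His5 (285 and 149), Arg5 (226 and 191) and Lys5 (222 and 190). The rise of Tyr5 and Trp5 is thus not particular to aromatic residues. Over all aromatic variants, 725 rose and 580 fell, which became 860 and 468 with TMM, 828 and 497 with DESeq2 size factors and 305 and 858 with the charged reference. The medians before the split were -0.13 ± 0.05 for Phe5, 0.17 ± 0.10 for Tyr5 and 0.13 ± 0.07 for Trp5. Groups that gained later in glucose were among those that lost here: 32 of 40 Leu4-Phe5, 28 of 40 Met4-Phe5 and 22 of 40 Gly4-Phe5 variants fell, and 3, 1 and 1 rose. These T0 libraries are also the start of the glucose change, so a low T0 level raises that change. Started from T-1 instead, 116 Phe5, 15 Tyr5 and 0 Trp5 variants rose in glucose.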

How the data were processed

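Per the labels, plasmids were recovered from yeast, the variable region was amplified by PCR with barcodes and sequenced, and the authors deposited raw read counts per variant. The counter and any use of molecular identifiers are not given in the sources used here, so counts are reads and need not be independent molecules. Glucose and galactose columns of 1 time point share a sequencing sample and were told apart by their barcodes. The starting plasmid library was not analysed here.

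The 3 screens were joined by amino acid sequence, and no variant was filtered. edgeR 4.0.16 (quasi-likelihood F test, library size equal to total reads) tested all 16000 variants with the screen, or for the LIMK1 effect the culture, as a block. The block follows the labels, in which a screen number joins libraries of 1 culture. Deviations of T0 and T2 in glucose from their means over screens correlated at 0.136, -0.0888 and -0.0411 within screens 1, 2 and 3. limma 3.58.1 was run on 1 log2 value per screen, with 0.5 reads added, for exchanges at position 5, Thr3 and Ser3 pairs and residue pair terms. All p values were adjusted by the Benjamini-Hochberg method across every feature in a test, and 0.05 was the threshold. DESeq2 1.42.0, other scalings, a minimum of 100 reads, 5 added reads, no block, T-1 as the start and leaving out each screen were alternatives. The edgeR tests were checked on simulated counts, and the limma tests on simulated log2 values with normal noise, without read counts.

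Variants named are the human and yeast tails, the 5 highest and 5 lowest changes of each residue that passed with 1 sign in every screen, likewise the LIMK1 effects, the 3 largest exchanges in each direction and the 5 highest and lowest pair terms. Members, lists and tests were chosen with earlier results of these data known. R 4.3.3, Python and pandas were used.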

Additional observations from a re-analysis of the deposited data

Results flagged for a closer look

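The change from T1 to T3 differed between the media, by edgeR's test of the interaction, in the 10 aromatic variants named for their LIMK1 effect. It was lower in galactose for TSGF (-4.27), HSGF (-4.26), WSSW (-3.98), SSGF (-3.92) and MSGF (-3.91), and higher for KSIF (2.27), MTWF (2.26), ATCF (2.14), FTLY (2.13) and CSMW (1.99). With 3 screens per group, single screens were not examined as outliers.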

How the results depend on the processing

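Counts of variants that rose or fell depended on the scaling, and differences between variants in the same libraries did not. The design sets some limits: the 3 screens started from 1 transformed strain, and sugar and kinase change together. Depth limits the lowest variants, which had few reads or none at T2 and T3. The reads are not known to be independent molecules. The causes of the changes below were not tested, except that leaving out a screen leaves fewer samples.

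With DESeq2's Wald test and its own size factors, 417 Phe5, 61 Tyr5 and 34 Trp5 variants rose in glucose and 183 Phe5 variants fell, 524 aromatic variants rose and 1209 fell in galactose, and 269 were above and 35 below 0 in the LIMK1 effect. With DESeq2 size factors in edgeR, 398, 49 and 23 rose and 145, 455 and 518 fell in glucose, 516 rose and 1190 fell in galactose, and 31 were below 0 in the LIMK1 effect. With TMM, 315 Phe5, 35 Tyr5 and 7 Trp5 variants rose and 295 Phe5 variants fell in glucose, and 389 rose in galactose. Scaled to variants with charged residues at position 5, 430, 66 and 46 rose and 52, 202 and 302 fell in glucose, 532 rose and 1010 fell in galactose, 48 were above and 122 below 0 in the LIMK1 effect, and 305 rose before the split. With 5 reads added, the median of Tyr minus Trp was 0.0905, and 72 aromatic exchanges differed in the LIMK1 effect, as did 54 with a mean of at least 100 reads. Counts here and under the settings that follow stand without a share over all variants or exchanges under the same settings.

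Without the screen as a block, 134 Phe5, 15 Tyr5 and 1 Trp5 variants rose in glucose, 164 aromatic variants rose in galactose and 657 before the split, and 45 were above and 41 below 0 in the LIMK1 effect. In the pairing check, the T0 and T2 libraries of a screen matched each other best in 1 of 3 screens.

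Leaving out each screen in turn gave, for glucose, 108 to 126 Phe5, 11 to 16 Tyr5 and 0 to 1 Trp5 variants that rose and 491 to 562, 761 to 771 and 791 to 797 that fell. It gave 124 to 156 that rose and 2044 to 2093 that fell in galactose, 558 to 610 and 440 to 510 before the split, and 42 to 126 above and 34 to 63 below 0 in the LIMK1 effect. Phe exceeded Tyr in 406 to 425 contexts and Trp in 448 to 467, and Tyr exceeded Trp in 74 to 93, with median differences of 1.76 to 2.27, 2.10 to 2.63 and 0.17 to 0.26. No aromatic exchange was called in the LIMK1 effect (0 to 0). Thr3 was higher in 26 to 50 pairs and Ser3 in 59 to 104, and 42 to 47 pair terms were above and 45 to 47 below their sum.

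Some single values changed sign. In glucose, with DESeq2's Wald test, its size factors in edgeR and the charged reference, the Phe5 median was 1.06, 1.06 and 1.52, ASGW 0.12, 0.12 and 0.58, ATGF 2.27, 2.29 and 2.75, ATGW 0.52, 0.51 and 0.98, RSGW 0.0427, 0.0507 and 0.53, and RTGF 2.75, 2.75 and 3.21. With TMM, ATGF was 1.23 and RTGF 1.63. For the LIMK1 effect, DESeq2 size factors gave 0.0430 for ASGW and 0.12 for ATGY, RTGY was 0.0129 with the Wald test and 0.0120 with the size factors, ATGW ranged from -3.06 to 0.91 and RSGW from -0.56 to 2.44 with a screen left out. CSMW did not pass without the block (1.83), nor did WSSW (-4.06). RSGY did not pass with TMM (-1.47) or DESeq2 size factors (-1.001).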
